A study of Mus musculus with 106 samples.

Results

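The 9 genes Gata1, Klf1, Nfe2, Epor, Car1, Car2, Alas2, Slc4a1 and Tfrc were followed in mouse bone marrow cells, out of 21938 annotated protein-coding genes. They were chosen by name as regulators, receptor, enzymes and membrane proteins of the red cell lineage, and not by their values here. ChIP-seq for H3K27ac and H3K4me3 was done in haematopoietic stem cells (HSC) and bone marrow-derived macrophages (BMDM) of C57BL/6J mice, and each library came with a list of enriched intervals. Control mice were compared with mice given streptozotocin (STZ), a toxin of the insulin-producing beta cells, at 42 to 45 mg/kg per day for 5 days and studied 6 weeks later with a glucose above 13.9 mmol/L. Mice were 12 to 14 weeks old when assigned to the groups. The cells called HSC were marrow of femur and tibia from which cells carrying CD3, CD4, B220, Ter119 or Gr1 had been removed, so they were a lineage-depleted population that also holds progenitors. Ter119 marks later erythroid cells. BMDM were grown from marrow for 7 days in medium with 5 mmol/L glucose and were left unstimulated or given 100 ng/mL LPS with 10 ng/mL IFN-γ for 16 h. There were 35 lists for each mark, with 6 libraries in each group except unstimulated diabetic BMDM, which had 5.

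Red cells form from bipotent megakaryocyte-erythroid progenitors. GATA1 drives the programme together with KLF1, a zinc finger factor that binds CACCC sequences, and NF-E2, whose large subunit is encoded by Nfe2. Erythropoietin, sensed by its receptor EPOR, keeps the precursors alive while TFRC, the transferrin receptor, brings in iron. ALAS2 catalyses the first step of heme synthesis in erythroid cells, SLC4A1 (band 3) exchanges chloride for bicarbonate across the red cell membrane, and CAR1 and CAR2 are carbonic anhydrases of the cytosol. H3K4me3 marks promoters, particularly those rich in CpG, and H3K27ac marks active promoters and enhancers.

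Promoter sequences from RefSeq (GRCm38.p6) are shown for 5 of the 9 genes, since the marks were read at these start sites. Each line holds 250 bases before and 50 bases from the start site, 5′ to 3′ on the strand of the gene. Capitals mark 3 motifs that were searched on both strands. AGATAA is a form preferred by factors of the GATA1 family, and CACACCC is one preferred by the KLF family. The third is the TATA box, searched as TATAAA.
Klf1, chr8:84901732-84902031, plus strand: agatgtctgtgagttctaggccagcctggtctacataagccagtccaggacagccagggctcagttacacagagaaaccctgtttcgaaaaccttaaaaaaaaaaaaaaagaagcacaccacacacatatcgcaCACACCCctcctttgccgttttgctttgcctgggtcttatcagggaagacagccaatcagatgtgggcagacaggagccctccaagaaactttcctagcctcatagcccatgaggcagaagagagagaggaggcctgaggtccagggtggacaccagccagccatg
Gata1, chrX:7967861-7968160, minus strand: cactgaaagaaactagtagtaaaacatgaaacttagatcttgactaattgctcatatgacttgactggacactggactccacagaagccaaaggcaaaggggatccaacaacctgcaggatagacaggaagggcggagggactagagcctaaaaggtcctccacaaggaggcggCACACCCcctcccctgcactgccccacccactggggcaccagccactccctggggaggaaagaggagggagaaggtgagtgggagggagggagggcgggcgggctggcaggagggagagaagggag
Epor, chr9:21963527-21963826, minus strand: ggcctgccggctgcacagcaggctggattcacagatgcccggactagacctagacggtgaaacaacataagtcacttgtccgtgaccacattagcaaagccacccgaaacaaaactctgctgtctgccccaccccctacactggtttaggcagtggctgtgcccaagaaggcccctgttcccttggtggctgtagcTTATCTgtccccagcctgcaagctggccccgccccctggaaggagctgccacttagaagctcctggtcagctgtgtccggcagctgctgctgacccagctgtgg
Alas2, chrX:150547167-150547466, plus strand: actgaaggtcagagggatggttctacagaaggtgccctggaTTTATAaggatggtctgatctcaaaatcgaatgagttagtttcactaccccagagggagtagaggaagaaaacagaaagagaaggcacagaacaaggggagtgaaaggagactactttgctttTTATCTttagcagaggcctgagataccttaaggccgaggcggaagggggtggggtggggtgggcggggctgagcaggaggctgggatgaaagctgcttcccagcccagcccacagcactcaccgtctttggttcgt
Tfrc, chr16:32608646-32608945, plus strand: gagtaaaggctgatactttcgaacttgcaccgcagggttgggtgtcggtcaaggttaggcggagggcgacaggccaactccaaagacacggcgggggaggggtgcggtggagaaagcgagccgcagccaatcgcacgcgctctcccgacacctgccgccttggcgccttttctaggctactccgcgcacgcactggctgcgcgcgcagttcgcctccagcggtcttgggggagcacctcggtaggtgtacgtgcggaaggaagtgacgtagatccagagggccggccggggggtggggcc

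CACACCC lay 116 bases before the start site of Klf1 and 76 bases before that of Gata1. AGATAA lay 54 bases before the start site of Epor and 86 bases before that of Alas2, in reverse complement in both. The Alas2 sequence also held TATAAA in reverse complement. Among all 32851 promoters of the table, 11.2% held AGATAA, 7.95% held CACACCC and 13.6% held TATAAA. Tfrc held none of them but had 30 CpG, against 3 in Klf1, 4 in Gata1, 6 in Alas2, 7 in Epor and a median of 7 over all promoters. A match of letters is a description and not a binding site.

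The genes occupy separate loci in GRCm38. Gata1 (chrX:7959260-7978071, minus strand) lies beside Hdac6, Klf1 (chr8:84901928-84905291, plus) between Dnase2a and Gcdh, and Nfe2 (chr15:103248212-103258403, minus) beside Hnrnpa1 and Cbx5. Epor is at chr9:21958897-21963506 (minus), Alas2 at chrX:150547375-150570638 (plus), Tfrc at chr16:32608920-32632794 (plus) and Slc4a1 at chr11:102348824-102366203 (minus). Car1 (chr3:14766216-14808368, minus) and Car2 (chr3:14886273-14900770, plus) are neighbours on chromosome 3. Together they have 38 annotated start sites.

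The lists held 13730 to 277213 intervals, with a median of 110154.5, and gave no read totals, so the depth behind each interval is unknown. To put lists of unequal length on a common scale, intervals were ranked within each list by the deposited −log10 p of their summit. The promoter rank of a gene is that of its best interval within 1 kb of any start site, and rank 1 is the strongest. The promoter score is log2(20000/rank) and is 0 for a gene ranked beyond 20000 or not listed, so that a difference of 1 corresponds to a rank 2 times better. In these mixed populations, fewer cells carrying a mark and less of the mark per cell cannot be told apart. The paper counts n as individual animals and gives 6 per group for ChIP-seq, but the sample labels do not name the mouse behind a library. The p-values measure the spread between these libraries. A control library labelled LPS+IFN-γ (number 5) and 2 labelled unstimulated (numbers 5 and 6) had H3K27ac scores that went against their labels. Over the 100 genes that differed most between both states in the other libraries, these 3 were nearer to their labelled state at 20 to 25 genes and the other 20 BMDM libraries at 62 to 85. The genes were chosen in those 20, which raises their range, and the 3 were picked from these same data, so the contrast is a description. In H3K4me3 the corresponding ranges were 41 to 51 and 33 to 60, so that mark did not separate them. Markers fitted the labels in part. In H3K27ac the 12 HSC libraries held 8 to 12 of 14 stem and progenitor promoters within the first 20000 intervals and 1 to 5 of 16 macrophage promoters, and unstimulated BMDM held 3 to 10 and 8 to 11. Ly6a and Slamf1, markers of stem cells, were at 0 in every HSC library.

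In HSC, 6 of the 9 genes carried promoter H3K27ac within the first 20000 intervals in nearly every library. Tfrc was placed best, with ranks from 948 to 6286 and a median of 2077.5. Car2 followed at 619 to 4933 (median 2946.5), Nfe2 at 833 to 5899 (median 3070) and Klf1 at 1870 to 6018 (median 4198.5). These 4 genes were within the first 20000 in 12 of 12 HSC libraries, and their ranges overlapped one another. Slc4a1 ranged from 2460 to 24898 (median 9573) and fell beyond the limit in 1 library, control 3. Epor ranged from 6318 to 17609 (median 11255.5), so that Slc4a1 and Epor had overlapping ranges at a lower level than the other 4.

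The remaining 3 genes had little or no promoter H3K27ac. Gata1 was listed in 12 of 12 HSC libraries, but with a median rank of 30659 and with 5 of 12 inside the first 20000, the best at 11808. Alas2 was listed in 5 of 12, at 17019 and 20913 in diabetic 6 and 5, at 29838 and 57452 in control 4 and 5, and at 63485 in diabetic 1. Car1 had no promoter interval of either mark in any of the 70 lists. Low placing of Gata1 and Alas2 therefore stood beside high placing of Klf1 and Nfe2 in the same libraries.

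**Figure D1:**
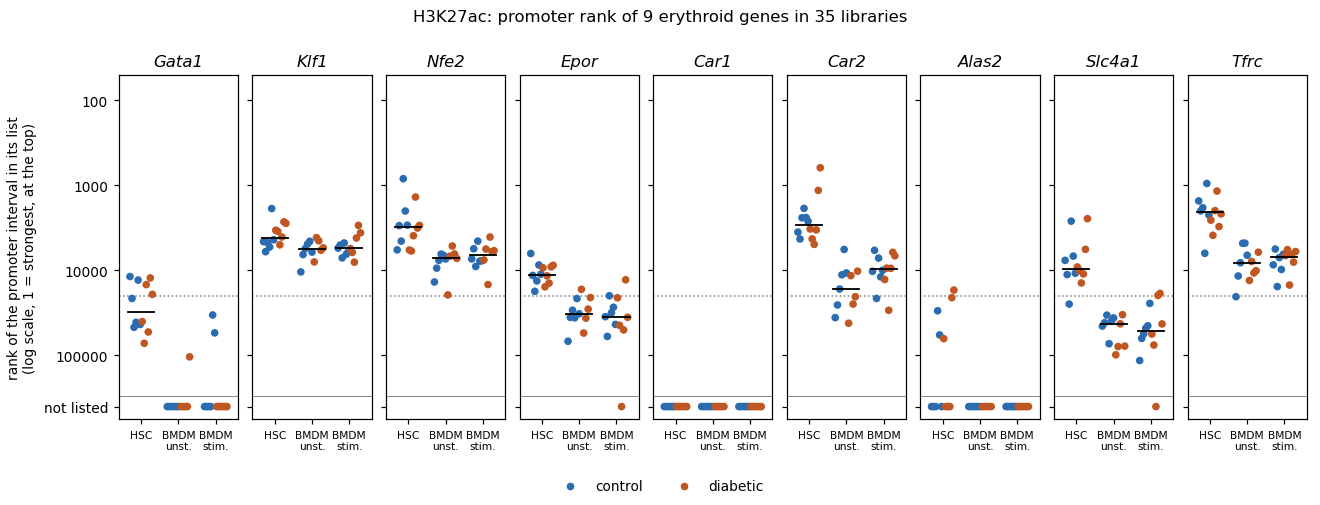
Rank of the best H3K27ac interval at each promoter, 1 point per library (blue control, orange diabetic) on a log axis with rank 1 upward, by cell state, with group medians as bars, a dotted line at 20000 and libraries without an interval in the row below. Tfrc, Car2, Nfe2 and Klf1 lie between 619 and 6286 in HSC, and every library is in the row of those not listed for Car1.

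Unstimulated BMDM answered whether this H3K27ac was shared with another haematopoietic cell. Klf1 was marked in all 11 BMDM libraries at ranks of 4113 to 10409 (median 5524). Nfe2 ranked from 5159 to 19403 (median 7218) and Tfrc from 4778 to 20383 (median 8118). All 3 genes thus kept promoter H3K27ac in macrophages at a lower place than in HSC, with overlapping ranges. Car2 ranged from 5662 to 41822 (median 16548), with 6 of 11 libraries within the first 20000. Epor ranged from 16678 to 68144, with 1 of 11 inside, and Slc4a1 from 33178 to 98387, with 0 of 11 inside. Gata1 was listed in 1 BMDM library at rank 104013, and Alas2 and Car1 in none.

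Between HSC and unstimulated BMDM, 6 of the 7 genes that could be tested had a higher H3K27ac score in HSC, and none a lower score (limma, adjusted p under 0.05 over 13101 genes). Over all genes 33.1% were called, 2914 higher and 1427 lower in HSC, and the median difference was 0.14, against 1.33 over the 7 genes. A gene entered the test with a score above 0 in at least 5 libraries, which HSC alone can supply, so the count over the 7 is a description. Slc4a1, Epor and Gata1 entered only through HSC, the group where they were high. Alas2 and Car1 did not enter.

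Car2 had the widest gap of the 7. Its score averaged 2.98 in HSC and 0.50 in unstimulated BMDM, a difference of 2.49 ± 0.30 (SE; adjusted p = 1.69e-07, limma). Every HSC score of Car2 was above every BMDM score, which held for 1.39% of the 13101 genes (182) and for no other of the 9. Tfrc differed by 2.00 ± 0.27 (adjusted p = 1.22e-06), from 3.20 to 1.21. Nfe2 differed by 1.41 ± 0.28 (adjusted p = 2.57e-04), from 2.72 to 1.31.

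Slc4a1 and Epor differed by less on this scale but were near 0 in BMDM. The Slc4a1 score was 1.33 in HSC and 0 in every unstimulated BMDM library, a difference of 1.33 ± 0.23. Epor scored 0.87 against 0.026, a difference of 0.84 ± 0.13. Since both entered the test only through HSC, their calls are given as a description and carry no support of their own. Klf1 had the smallest called gap, 0.58 ± 0.18 (adjusted p = 0.0142, limma), since it averaged 2.38 in HSC and 1.803 in BMDM. Gata1 averaged 0.22 in HSC and 0 in BMDM, and its difference of 0.22 ± 0.09 did not pass (adjusted p = 0.0768). Without the 3 doubtful control BMDM libraries the same 6 genes were called, with differences from 0.63 for Klf1 to 2.67 for Car2.

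Some calls turned on where the rank limit was set. Counting only the first 10000 intervals gave Slc4a1 a difference of 0.49 (adjusted p = 0.0526) and Epor 0.11 (adjusted p = 0.185), while counting the first 50000 gave Gata1 0.95 (adjusted p = 0.00184).

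The Klf1 interval was displaced from the start site. Its H3K27ac summit lay 852 to 1504 bp downstream of the nearest start site over the 35 libraries (median 1066), and in 2 of the 35 it fell within 1 kb. The interval still reached into the promoter window, and no other gene's start site lay inside it. For Car2, Tfrc, Nfe2, Slc4a1, Alas2 and Gata1 the median summit lay 19, −64, 167, 161, 15 and 94 bp from a start site.

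**Figure D2:**
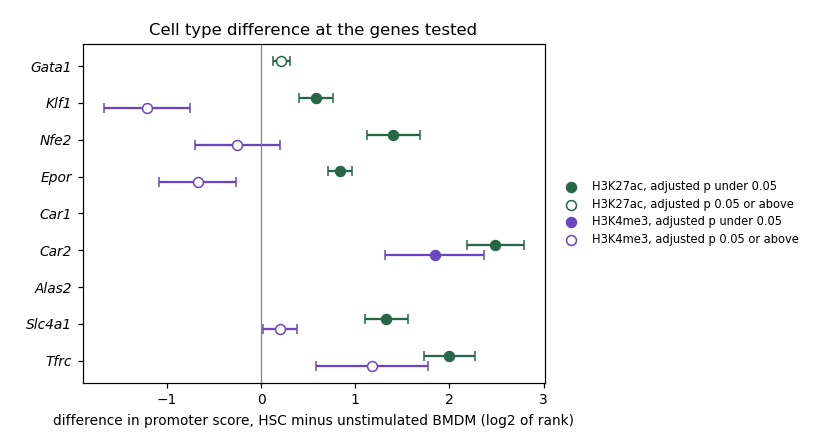
Difference in promoter score (log2 scale) between HSC and unstimulated BMDM for each gene and mark, with its standard error, positive where HSC ranked better and filled where adjusted p was under 0.05. In H3K27ac Car2 lies farthest from 0 at 2.49, and in H3K4me3 Car2 is the 1 gene called, at 1.84, while Car1 and Alas2 have no point because they could not be tested.

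H3K4me3 divided the same genes in another way. Car2 and Tfrc were placed high in HSC, Car2 at 121 to 6828 (median 1312) and Tfrc at 68 to 18137 (median 1642.5). Klf1 ranged from 1587 to 22552 (median 6444.5) and Epor from 5400 to 15601 (median 10399). Nfe2 was listed in 11 of 12 libraries, from 1008 to 17559 in those. Slc4a1 ranged from 11052 to 34398, with 5 of 12 within the first 20000. Gata1 was listed once, at 128710, and Alas2 and Car1 were not listed, so these 3 genes had no H3K4me3 promoter within the first 20000 intervals of HSC.

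BMDM also carried H3K4me3 at 5 of these promoters. Median ranks of Klf1, Epor and Nfe2 were better than in HSC, and those of Tfrc and Car2 worse. The H3K4me3 lists were shorter in HSC, with a median of 59726.5 intervals against 131406 in unstimulated BMDM. In H3K27ac these medians were 125766.5 and 111095. In H3K4me3, list length and cell type therefore cannot be told apart in this comparison. In unstimulated BMDM, Klf1 ranked 718 to 5896 (median 2764), Tfrc 812 to 13397 (median 3201) and Car2 852 to 16491 (median 6094). Epor ranked 493 to 23332 (median 6582) and Nfe2 1645 to 12962 (median 7471). Ranges of HSC and BMDM overlapped for each of the 5. Slc4a1 was placed lower, at 15061 to 59538.

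**Figure D3:**
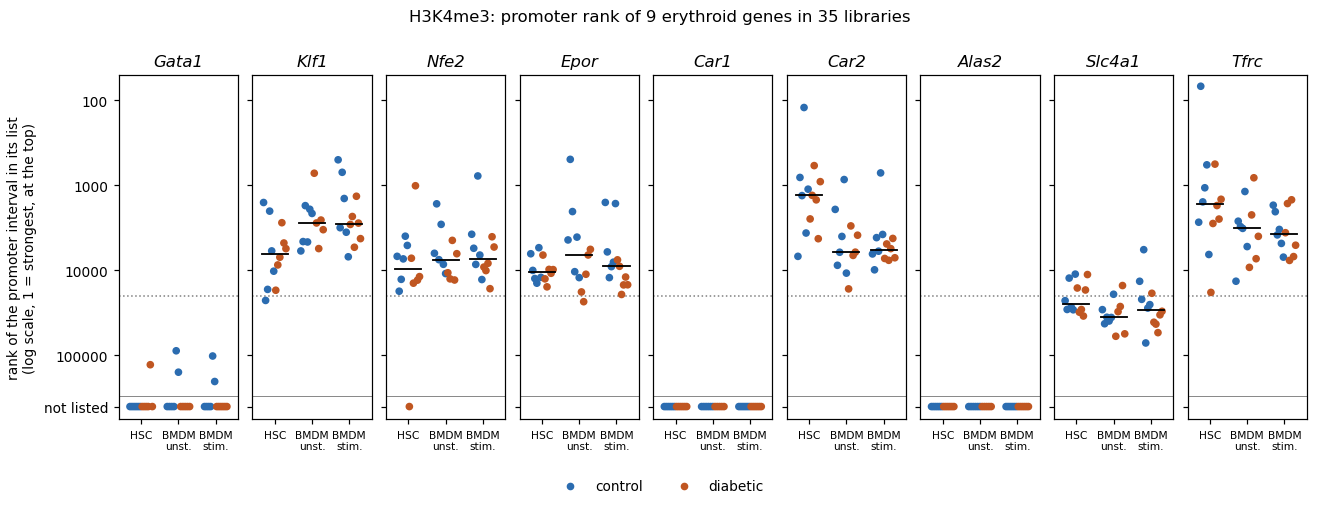
Rank of the best H3K4me3 interval at each promoter, 1 point per library (blue control, orange diabetic) on a log axis with rank 1 upward, by cell state, with group medians as bars and a dotted line at 20000. Car2 and Tfrc reach ranks of 121 and 68 in HSC, and the points of Klf1, Epor and Nfe2 in BMDM overlap those in HSC.

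Car2 was the 1 gene of 6 tested whose H3K4me3 score differed, by 1.84 ± 0.52 (limma, adjusted p = 0.0220), beside 12.0% of 14187 genes called. Without the 3 doubtful libraries it differed by 1.94 and was called again. Klf1 had a lower H3K4me3 score in HSC by −1.21 ± 0.46 that did not pass (adjusted p = 0.0785). Leaving out HSC control 1 or control 4 brought Klf1 below the threshold, with −1.41 (adjusted p = 0.0332) and −1.38 (adjusted p = 0.0465). Tfrc differed by 1.17 ± 0.59 (adjusted p = 0.185), Epor by −0.67 ± 0.41 (adjusted p = 0.278), Nfe2 by −0.25 ± 0.45 (adjusted p = 0.744) and Slc4a1 by 0.20 ± 0.18 (adjusted p = 0.479). None of the 9 had every HSC H3K4me3 score above every BMDM score, which held for 0.0634% of genes (9). Klf1, Nfe2, Tfrc, Epor and Slc4a1 were thus called in H3K27ac but not in H3K4me3, with Epor and Slc4a1 entering the H3K27ac test only through HSC. The difference between the marks was not tested.

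H3K4me3 was also set beside the CpG content of the printed promoters. Over the 16539 genes with a promoter in the table, 69.4% of those with at least 30 CpG held H3K4me3 in the first 20000 intervals of all 12 HSC libraries, and 3.56% of those with at most 7 CpG. Tfrc, with 30 CpG, was held in 12 of 12. Epor, with 7, was also held in 12 of 12 and Klf1, with 3, in 11 of 12, whereas Gata1 and Alas2, with 4 and 6, were held in 0 as were 80.4% of the promoters with at most 7 CpG. The H3K4me3 summits of Epor and Klf1 lay a median of 911 and 1107 bp downstream of the start site, outside the sequences shown, so their CpG counts do not describe the bases under the summit.

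Beyond the promoters, the gene bodies with 20 kb on either side held 36 consensus H3K27ac regions (first 20000 intervals of all libraries merged, held by at least 2 libraries). Of 19 that could be tested, 10 differed between HSC and unstimulated BMDM by Fisher's exact test, 9 of them held more often in HSC, beside 33.1% of 16123 regions called over the genome. Of the 10, 4 covered a start site of the gene itself and 3 that of another gene. The remaining 3 covered none. The windows were therefore not read as belonging to 1 gene alone. A region entered the test by the number of libraries that held it, which HSC alone can supply. Where only 1 of the cell types held a region, its p-value is a description and carries no support of its own.

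Slc4a1 had 2 regions that no unstimulated BMDM library held. Both entered the test through HSC alone, so their p-values are given as a description. A region over the start sites of Slc4a1 (chr11:102360211-102367114) was held in 11 of 12 HSC and 0 of 11 unstimulated BMDM libraries (adjusted p = 2.59e-04, Fisher's exact test). A further region 5988 bp upstream, outside any protein-coding gene (chr11:102372191-102377209), was held in 12 of 12 and 0 of 11 (adjusted p = 5.32e-05). It was also held in 0 of 12 LPS+IFN-γ BMDM libraries, although it was listed beyond the limit in 7 of 11 unstimulated and 7 of 12 stimulated libraries. The upstream region ranked a median of 9985 in HSC, close to the 9573 of the Slc4a1 promoter. The 200 bases around its summit in the best-ranked library, diabetic 6 at rank 4985, are shown on the plus strand. The counts of libraries belong to the whole region of 5019 bp, which a library held if it overlapped any part. Which libraries covered these 200 bases was not examined.
Slc4a1 upstream region, chr11:102376657-102376856: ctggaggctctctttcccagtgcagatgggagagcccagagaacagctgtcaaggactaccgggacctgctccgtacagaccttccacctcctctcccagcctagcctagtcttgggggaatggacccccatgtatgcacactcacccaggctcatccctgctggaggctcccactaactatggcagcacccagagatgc

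None of the 3 motifs occurred in these 200 bases. Over 43347 merged HSC H3K27ac intervals the middle 200 bases held AGATAA in 4.81%, CACACCC in 6.53% and TATAAA in 3.5%.

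Other regions at start sites were made from the same intervals and rank limit as the scores, so their direction is not separate evidence. At Epor, chr9:21960533-21964533 was held in 12 of 12 HSC and 1 of 11 BMDM libraries (adjusted p = 2.59e-04, Fisher's exact test). At Car2, chr3:14885839-14887542 was held in 12 and 6 (adjusted p = 0.0414). The upstream start site of Nfe2, chr15:103257637-103259839, was held in 12 and 5 (adjusted p = 0.0199), while its intronic region chr15:103254367-103255907 was held in 12 and all 11. Klf1 (chr8:84900790-84903939) was held in 12 and 11 and Tfrc (chr16:32608462-32609764) in 12 and 10, so that their higher scores in HSC came with a shared region.

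Several called regions lay at neighbours. A region over the starts of Cbx5 and Hnrnpa1, in the window of Nfe2, was held in 12 of 12 HSC and 0 of 11 BMDM libraries. It was listed beyond the limit in all 11 of these BMDM libraries. One over the start of Tnk2, beside Tfrc, was held in 12 and 4, and one over the starts of Apex2 and Pfkfb1, beside Alas2, in 12 and 2. At any rank the Tnk2 region was listed in 11 and the Apex2 region in 7 unstimulated BMDM libraries. In the window of Klf1 an exonic region of Mast1 was held in 0 of 12 HSC and 5 of 11 BMDM libraries (adjusted p = 0.0414, Fisher's exact test), the 1 called region that was more frequent in BMDM. At any rank this region was listed in 3 HSC and 9 unstimulated BMDM libraries.

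Car2 had a series of weaker HSC regions, upstream of the gene and inside it. An intronic region of Car3 (chr3:14869282-14870232) was held in 7 of 12 HSC and 0 of 11 BMDM libraries (adjusted p = 0.0199, Fisher's exact test). Further regions starting at chr3 positions 14876439, 14879024, 14887603 and 14889002 were held in 5, 2, 5 and 5 HSC libraries and in 0 unstimulated BMDM libraries, and did not pass. Those at 14887603 and 14889002 lie inside Car2, the former 964 bp from a start site and so reaching into the promoter window. The Car3 region was listed beyond the limit in 6 of 11 unstimulated BMDM libraries. An exonic region of Car3 (chr3:14871382-14871923) was held in 4 HSC libraries, all diabetic (4 of 6 against 0 of 6 controls, unadjusted p = 0.0606, Fisher's exact test), and in 0 unstimulated BMDM libraries, but was listed in 12 of 12 HSC and 4 of 11 unstimulated BMDM libraries. The other 4 regions were listed at any rank in 11 or 12 HSC libraries and in 0 unstimulated BMDM libraries.

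Gata1 and Alas2 had H3K27ac inside the gene at a low rank. An intronic region of Gata1 (chrX:7965947-7967125), 785 bp from a start site, was listed in 12 of 12 HSC libraries and in 2 of 11 BMDM libraries, and was within the first 20000 in 4 and 0. This intronic region reaches into the promoter window of 1 kb, and its best rank of 11808 is also the best promoter rank of Gata1. Its counts are therefore not separate from the promoter ranks of Gata1. The region over the start site (chrX:7967311-7968370) was listed in 12 and 0 and within the limit in 2 and 0. In Alas2, an intronic region (chrX:150550555-150550945), also inside an intron of Apex2, was listed in 9 HSC libraries and an exonic one (chrX:150564819-150565354) in 10. Neither was listed in any of the 23 BMDM libraries. Alas2 thus had H3K27ac in its gene body in more HSC libraries than at its promoter, where 5 were listed. The 200 bases of the Gata1 intron, which held the best Gata1 rank of 11808, are shown on the plus strand.
Gata1 intronic region, chrX:7966316-7966515: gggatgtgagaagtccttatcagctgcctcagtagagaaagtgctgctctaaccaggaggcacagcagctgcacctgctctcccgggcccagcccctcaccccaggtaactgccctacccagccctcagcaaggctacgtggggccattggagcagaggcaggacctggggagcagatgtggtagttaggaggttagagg

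Car1, without a promoter interval, was not empty in HSC. Its window held 16 H3K27ac intervals in 9 of 12 HSC libraries, 11 of them inside the gene, with a best rank of 14687 in diabetic 5. Unstimulated BMDM held 2 and LPS+IFN-γ BMDM 5, with 0 inside the gene. Only 2 of the HSC intervals were within the first 20000, so no consensus region of Car1 was tested.

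**Figure D4:**
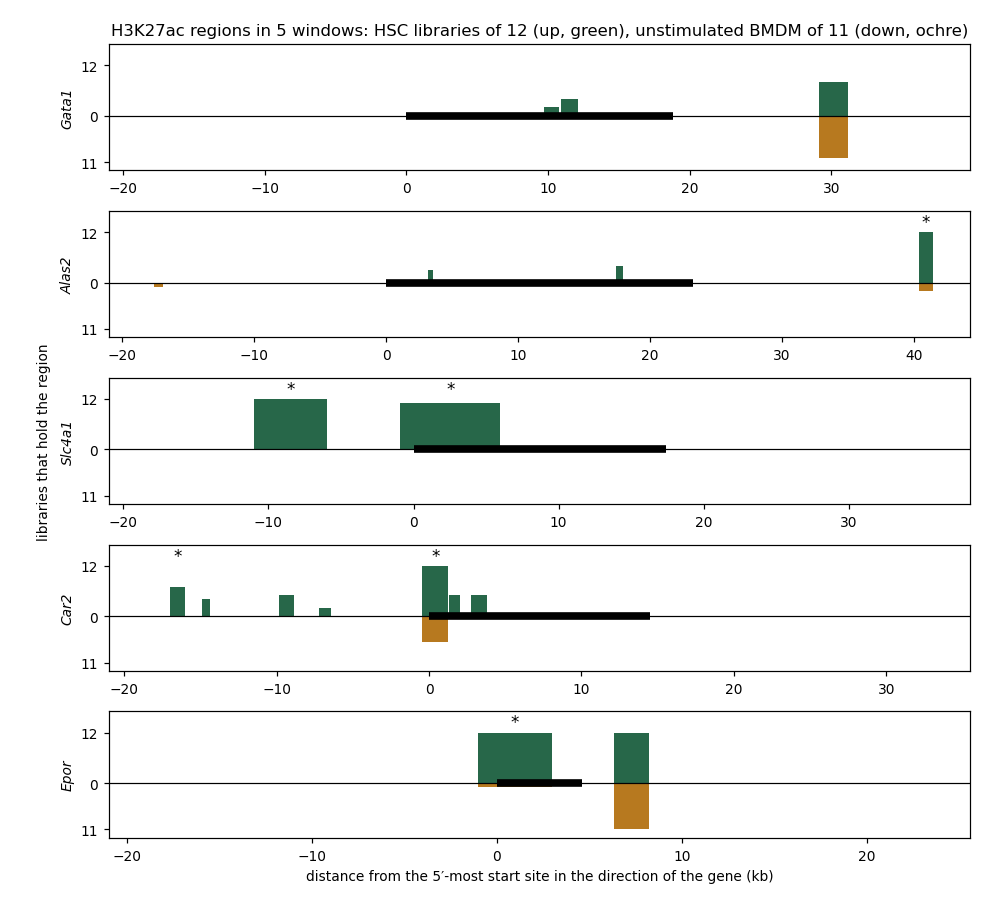
H3K27ac regions in the windows of Gata1, Alas2, Slc4a1, Car2 and Epor, by distance in kb from the 5′-most start site, with bars for the HSC libraries of 12 that held a region (up, green) and the unstimulated BMDM libraries of 11 (down, ochre), the gene as a black line and an asterisk where adjusted p was under 0.05. The region upstream of Slc4a1 is held in 12 HSC libraries and 0 BMDM libraries.

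In H3K4me3 the windows held 30 regions, and 0 of the 9 testable ones differed between HSC and unstimulated BMDM by Fisher's exact test, beside 1.53% of 16227 regions called.

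The 12 HSC libraries differed widely at Slc4a1. By control 1 to 6 its H3K27ac ranks were 7610, 11184, 24898, 2630, 6786 and 10791, and by diabetic 1 to 6 they were 9111, 10035, 14039, 11005, 5650 and 2460. Both groups spanned the range, with control 4 and diabetic 6 highest. Genes were split into quartiles by mean score in HSC, and the SD of each gene was set beside its quartile. The SD of the Slc4a1 score was 0.90, higher than that of 99.7% of the 3275 genes of its quartile, whose median SD was 0.36. Nfe2 had an SD of 0.87 against a median of 0.49, higher than 95.7% of its quartile. Car2 also had an SD of 0.87 but fell in the next quartile, with a median of 0.91, and was higher than 44.3%. The contrast between Nfe2 and Car2 thus comes from the edge between quartiles. Epor (SD 0.42), Klf1 (0.48), Gata1 (0.32) and Tfrc (0.73) were higher than 67.3%, 48.8%, 49.0% and 27.5% of the genes of their quartiles.

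Slc4a1 varied together with the globin genes. Globins are the protein of haemoglobin and are made in erythroid precursors. The HSC libraries held 2 to 4 of 7 globin promoters within the first 20000 H3K27ac intervals, with a summed score of 1.53 to 8.93 (median 2.96), and Hbb-bh1, Hbb-y and Hba-x were at 0. Unstimulated BMDM held 0 of 7. Over the 12 HSC libraries the Slc4a1 score followed the summed globin score with Pearson's r = 0.78 and Spearman's rho = 0.79, and r = 0.71 without the 2 libraries farthest from the median. Car2 gave r = 0.77 and rho = 0.75, which fell to r = 0.45 without 2 libraries, and Epor gave 0.63 and 0.59 (0.57 without 2). Klf1 gave r = 0.48 (0.43 without 2) and Gata1 0.46 (0.12 without 2), Nfe2 gave 0.07 and Tfrc −0.04. The r of Alas2, 0.62, rests on the 1 library where its score was above 0. These values describe 12 libraries, each gene pair sharing library and depth. With the number of intervals in the list, r was −0.24 for Slc4a1 and ran from −0.64 for Alas2 to 0.11 for Nfe2, with Klf1 at −0.42 (−0.71 without 2). Whether the share of erythroid cells left after Ter119 depletion differed between libraries was not tested.

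**Figure D5:**
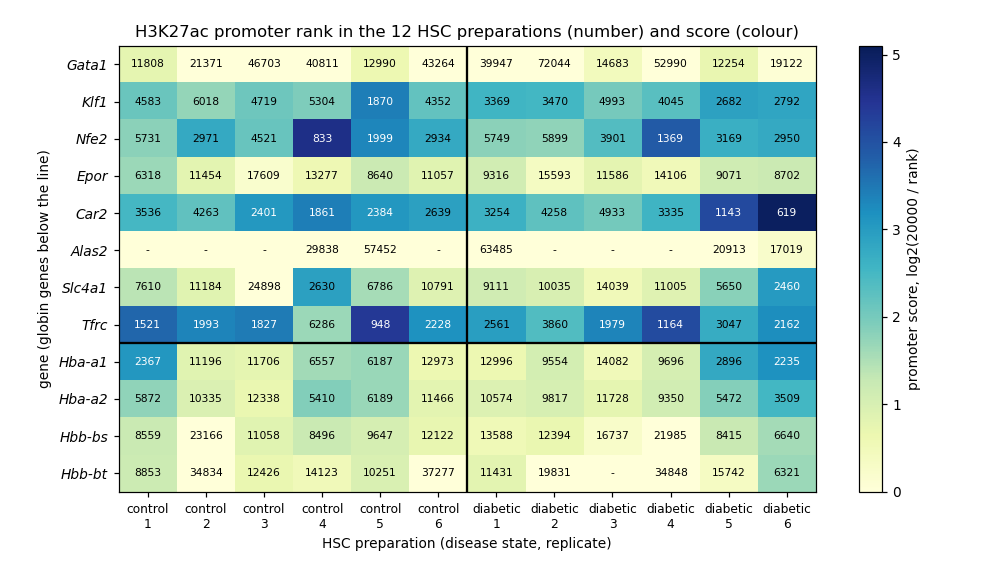
H3K27ac promoter rank (number) and score (colour) of 8 genes and 4 globin genes in the 12 HSC libraries, 6 control and 6 diabetic, with a dash where no interval was listed. Slc4a1 is placed best in control 4 at 2630 and in diabetic 6 at 2460, and Car2 at 619 in diabetic 6.

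Over all 35 H3K27ac libraries, the patterns most like Slc4a1 were those of Hba-a2 (r = 0.95) and Trim10 (r = 0.95) among 13100 genes compared. Epor was most like Tspo2 (0.93) and Tmem136 (0.91), Car2 like Pip5k1b (0.90) and Heg1 (0.89), and Tfrc like Zbtb46 (0.87) and Cdkl1 (0.86). Gata1 was nearest to Tmem86b (0.86) and Pklr (0.83), Nfe2 to Ripor1 (0.83) and Cabp2 (0.79), and Klf1 to Sphk1 (0.80) and Tspan33 (0.78). These r values mix the difference between cell types with the spread inside each.

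Other genes of the lineage were counted by list in H3K27ac, and each count is to be read against the 33.1% of 13101 genes called over the genome, 2914 higher and 1427 lower in HSC. No test of a list was made. Of 23 genes of the red cell membrane and skeleton, 20 passed the low-value filter, and 14 were higher and 1 lower, with a median difference of 0.60 against 0.14 over all genes. Gypc, a glycophorin, differed by 2.02 ± 0.33 (adjusted p = 1.82e-05, limma) and Sptb, the erythroid beta spectrin, by 1.90 ± 0.30 (adjusted p = 1.17e-05). Ank1, the ankyrin that ties spectrin to SLC4A1, went the other way, by −1.44 ± 0.48 (adjusted p = 0.0194). Of 16 heme synthesis genes, 6 were higher and 1 lower (median 0.46), with Ppox higher at 1.57 ± 0.36 and Hmox1, which breaks heme down, lower at −0.58 ± 0.22.

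Of 18 erythroid transcription factors, 7 were higher and 2 lower in HSC (median 0.28). Mafk, a small partner of NFE2, differed by 2.15 ± 0.37 (adjusted p = 4.04e-05, limma) and Foxo3 by 1.54 ± 0.29. Lmo4 (−1.24 ± 0.32) and Ldb1 (−0.69 ± 0.22) were lower. Of 16 genes of iron uptake and storage 3 were higher and 2 lower (median 0.04), with Iscu (1.42 ± 0.42) and Fth1 (1.21 ± 0.45) higher and Slc11a2, which carries iron out of endosomes, lower by −2.38 ± 0.53. Pcbp1 differed by −1.86 ± 0.61. This share is close to the 33.1% over all genes.

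Of 14 annotated genes of erythropoietin and stem cell factor signalling, 3 were higher and 5 lower (median −0.07). Cish, a feedback inhibitor, differed by 0.99 ± 0.22 and Kit, the stem cell factor receptor, by 0.82 ± 0.12, both higher in HSC. Kit, like Car8 and Car3 below, was above 0 in at most 2 BMDM libraries and entered the test through HSC. Pim1, a kinase induced by cytokines, was lower in HSC by −4.40 ± 0.66 (adjusted p = 6.72e-06, limma), as was Lyn by −1.49 ± 0.30. Of 14 carbonic anhydrases other than Car1 and Car2, 7 passed the filter and 3 were called, Car8 (0.43 ± 0.13) and Car3 (0.32 ± 0.10) higher and Car13 (−1.70 ± 0.40) lower. In H3K4me3, where 12.0% of 14187 genes were called, 1 of 18 transcription factors, 1 of 16 heme genes, 3 of 14 membrane genes, 2 of 16 iron genes and 1 of 10 carbonic anhydrases were higher in HSC, and 1 of 16 iron genes and 1 of 14 signalling genes lower.

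Markers of other cells moved with the comparison of cell types. The 4 globin genes that passed the filter were at 0 in all unstimulated BMDM libraries and entered only through HSC, so their direction was fixed by the filter. Hba-a1 differed by 1.48 ± 0.25, Hba-a2 by 1.33 ± 0.15, Hbb-bs by 0.79 ± 0.14 and Hbb-bt by 0.51 ± 0.15, and reads of these near-identical copies may be split between them. Beside the 33.1% called over all genes, of 12 stem and progenitor genes tested 7 were higher and 1 lower, and of 11 macrophage genes 7 were lower. Megakaryocyte genes, which share GATA1 and NFE2 with the red cell lineage, gave 1 of 6 higher. Neutrophil genes gave 1 of 5 higher, T cell genes 3 of 4 and B cell genes 0 of 2. Their part in the results for the 9 genes was not tested.

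The study was built to compare diabetic with control mice, and no difference in rank was called at these genes. Since ranks are taken within each list, a rise or fall of a mark shared by all its intervals would not appear in them. The paper reports higher levels of both marks in diabetic HSC by Western blot, which is a measure of that kind. In HSC H3K27ac, Klf1 ranked 1870 to 6018 (median 4651) in controls and 2682 to 4993 (median 3419.5) in diabetic mice. Car2 ranked 1861 to 4263 (median 2520) and 619 to 4933 (median 3294.5), and Nfe2 833 to 5731 (median 2952.5) and 1369 to 5899 (median 3535). The groups overlapped for each of the 7 genes tested. Differences in score ran from −0.36 ± 0.39 for Nfe2 to 0.28 ± 0.25 for Klf1, with Slc4a1 at 0.12 ± 0.32. By limma 0 of 7 genes and 0.0% of all genes were called, with 261 genes at an unadjusted p under 0.05 and 0 of the 7 among them.

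In H3K4me3 the largest difference of the 6 tested genes in HSC was that of Tfrc. It ranked 68 to 6493 (median 1313.5) in controls and 561 to 18137 (median 2104.5) in diabetic mice, with a difference of −1.21 ± 0.82 (adjusted p = 1, limma). No gene of all 14187 was called (0.0%), and 527 genes and 0 of the 6 had an unadjusted p under 0.05. Consensus regions gave 0 of 5 testable H3K27ac and 0 of 2 testable H3K4me3 regions in the windows of the genes by Fisher's exact test, beside 0.0% of 3825 and 0.0% of 4010 regions, where 21 and 33 had an unadjusted p under 0.05.

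In BMDM the gene with the lowest unadjusted p was Epor in H3K4me3. Unstimulated control libraries ranked it 493 to 12150 (median 4216.5) and diabetic libraries 5649 to 23332 (median 11092), a difference of −1.58 ± 0.60 (unadjusted p = 0.0126, adjusted p = 1, limma). After LPS+IFN-γ it ranked 1584 to 12149 (median 7023.5) in controls and 7507 to 19183 (median 13358) in diabetic libraries, a difference of −1.32 ± 0.57 (unadjusted p = 0.0268, adjusted p = 0.776). The groups overlapped in both states, and neither difference passed. Without the doubtful libraries these were −2.06 (adjusted p = 0.921) and −1.46 (adjusted p = 0.735). Of the other genes 0 had an unadjusted p under 0.05 in any diabetic comparison of BMDM. Over all genes 0.0% were called in both marks and both states of BMDM, with 713 and 557 genes in H3K27ac and 563 and 832 in H3K4me3 at an unadjusted p under 0.05 in unstimulated and stimulated cells.

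LPS+IFN-γ moved none of the 9 genes past the threshold. In H3K27ac 272 genes were called (2.08%), and 0 of the 7 tested here. Car2 ranked 5792 to 29470 (median 9698.5) after stimulation, with 10 of 12 libraries within the first 20000 against 6 of 11 before, and its score differed by 0.51 ± 0.30 (adjusted p = 0.397, limma). Klf1 ranked 2952 to 7999, Nfe2 4047 to 14657 and Tfrc 5603 to 15485, and each range overlapped that of the unstimulated libraries. Of the listed pathway genes Lmo4 (1.16) and Car13 (2.36) rose and Pim1 fell by −2.45. In H3K4me3 0.0% of genes were called, with 850 at an unadjusted p under 0.05 and 0 of the 6 among them. Without the doubtful libraries, which were picked by their scores in these data, 893 genes were called in H3K27ac and again 0 of the 7. The difference between the diabetic effects in HSC and BMDM, and that between the LPS+IFN-γ effects of diabetic and control BMDM, were tested in the same fit and gave 0 calls among the genes followed here and 0.0% over all genes in both marks. At an unadjusted p under 0.05 there were 0 of the 9 genes, and 381 and 825 genes in H3K27ac and 522 and 715 in H3K4me3.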

How the data were processed

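H3K27ac and H3K4me3 ChIP-seq lists of 70 libraries were used, and 36 input samples had no list used here. Per the submitters' processing notes, reads of 50 bp were trimmed (Trim Galore 0.3.3, cutadapt 1.8), aligned with Bowtie2 2.2.6 to GRCm38 and called against input with MACS2 2.2.7.1. The deposited columns hold a score, a fold ratio over background, −log10 p and −log10 q for each summit, all computed by the authors within a library. No read totals were used, so intervals cannot be given counting errors, and a rank depends on the depth and background of its library. Summits of 1 interval were joined and ranked by −log10 p. Promoters reached 1 kb to either side of 93513 start sites (GENCODE M21). Scores, log2(20000/rank), were fitted with limma 3.58.1 (R 4.3.3) over all 35 libraries of a mark with a mean for each group, and p-values were adjusted by Benjamini-Hochberg over 13101 (H3K27ac) or 14187 (H3K4me3) genes with a score above 0 in at least 5 libraries. Regions were compared by two-sided Fisher's exact test (scipy 1.17.1), adjusted over regions that could reach 0.05. The fits were tested on simulated data. All 9 genes were named, with up to 2 called genes in each direction for each pathway list by size of difference, and the 2 genes of highest r with each gene. One gene that this rule picks is not reported here. Genes, lists and tests were chosen with earlier results of these data known. Alternatives were the rank limit (10000, 50000), a 500 bp promoter, ranking by fold, rank among genes, single summits, coding transcripts only, no filter, fits of the compared groups alone, permutation, the replicate block, leaving out each library or the 3 doubtful ones and, chosen after seeing the data, any summit within 1 kb of a start site. Regions were also made from the first 10000 intervals, from whole lists and with a larger overlap.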

Additional observations from a re-analysis of the deposited data

Results flagged for a closer look

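In 15 of 71 groups of 5 or 6 libraries, 1 library lay far from the others in the promoter score of a gene by Dixon's test at 95%, each library being compared with its own group of disease state and cell state. Chance alone flags about 1 group in 20, and in several groups the other libraries were all at 0, where any score above 0 stands apart.

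In HSC, Klf1 H3K27ac reached 3.42 in control 5 (rank 1870), where the next control library was at rank 4352, and Nfe2 H3K4me3 reached 4.31 in diabetic 4 (rank 1008), above 1.48 in the next diabetic library. Among the 6 diabetic HSC libraries, diabetic 6 had the highest Slc4a1 H3K4me3 score, 0.839 against 0.313, and the 1 Alas2 H3K27ac score above 0, 0.233. The H3K4me3 list of diabetic 6 was the shortest of all 70, with 13730 intervals, and Slc4a1 ranked 11180 in it. That list ended before the rank limit, so a place near its end still scored above 0. In its H3K27ac list diabetic 6 also ranked Slc4a1 (2460), Car2 (619) and Hba-a2 (3509) better than any other HSC library.

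In unstimulated BMDM, the Nfe2 H3K27ac score was 0.0437 in diabetic 1, and the next lowest of the 5 diabetic libraries was 1.47. The same library had the 1 Epor score above 0, 0.262. In H3K4me3, Slc4a1 scored 0.0687 in control 6 and 0.409 in diabetic 5, with the others of each group at 0.

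After LPS+IFN-γ, Tfrc H3K27ac was 0.429 in diabetic 3, and the next lowest of the 6 diabetic libraries was 1.32. Epor H3K27ac scored 0.0106 in control 3 and 0.634 in diabetic 5 with the others at 0, and Slc4a1 H3K27ac 0.101 in diabetic 5. In H3K4me3, Car2 reached 4.81 in control 5 (next control 2.41), a library whose H3K27ac partner went against its label, and Slc4a1 reached 1.81 in control 3 (next control 0.576) and 0.107 in diabetic 1. What set these libraries apart was not tested.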

How the results depend on the processing

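No alternative turned the direction of any of the genes between HSC and unstimulated BMDM, in either mark. In H3K27ac Slc4a1, Epor and Gata1 were at or near 0 in unstimulated BMDM and entered only through HSC. Their direction had little room to turn and is a description. In H3K27ac 6 genes, Slc4a1 and Epor among them, stayed called when each of the 23 libraries was left out, over 4052 to 4302 genes called in all. Ranking by fold gave 2529 genes in H3K27ac, with Klf1 at 0.90 (adjusted p = 0.0594) and Gata1 at 0.48 (adjusted p = 0.0383, limma). Rank among genes let Alas2 enter the test and gave Gata1 a difference of 0.82 (adjusted p = 4.71e-07, limma). Both genes passed the filter through HSC, which held all 5 libraries with an Alas2 promoter interval, so their values are a description. In H3K4me3 the limit of 10000 gave 831 genes, ranking by fold 576 genes and 0 of the 9, with Car2 at 0.46 (adjusted p = 0.749), and leaving out the doubtful libraries 1071. Leaving out a library gave 1216 to 2110 genes and 1 to 2 of the 9. For LPS+IFN-γ in H3K27ac, 272 genes became 1 by fold, 136 with no filter, 27 from the compared groups alone, 0 by permutation and 893 without the doubtful libraries, and 143 (without unstimulated control 4) to 518 (without LPS+IFN-γ control 5) when 1 library was left out.

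Diabetic comparisons gave 0 calls among the 9 genes under every alternative run. Over all genes, HSC H3K27ac gave 3 by rank among genes and 0 to 2 without a library, and unstimulated BMDM H3K27ac gave 2 from the compared groups alone and 0 to 1 without a library. H3K4me3 gave 1 in HSC and 1 in LPS+IFN-γ BMDM at the limit of 10000, 1 in unstimulated BMDM with no filter, and 2 and 1 in unstimulated and LPS+IFN-γ BMDM without the doubtful libraries, with 0 to 1 when a library was left out. Regions called between HSC and BMDM in H3K27ac were 2088 from the first 10000 intervals, 6 of them in the windows, and 14101 from whole lists, 20 in the windows. Leaving out a library gave 4015 to 4930, with 8 to 10 in the windows. In H3K4me3 whole lists gave 14903, 4 in the windows, an overlap of at least 1 in 2 bases of the region gave 135, and leaving out a library 98 to 274.

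Pairing of same-numbered libraries was uneven. In each comparison the lowest correlation of their deviations was between −0.276 and 0.052, and at most 0.5 of the libraries were nearest to their own number. Between LPS+IFN-γ and unstimulated BMDM, same-numbered libraries were more alike than others. In H3K27ac the medians were 0.127 against −0.032 (diabetic) and 0.075 against −0.001 (control). In H3K4me3 they were 0.099 against −0.046 and 0.020 against −0.008. Between HSC and unstimulated BMDM the same-number medians ran from −0.047 to 0.065. With the replicate number as a block, LPS+IFN-γ gave 109 genes in H3K27ac and HSC against BMDM 4219 in H3K27ac and 1561 in H3K4me3, and no call among the 9 genes changed. Ranks carry no counting error because depth is unknown, and a gene beyond rank 20000 is not shown to lack the mark. The causes of these shifts were not tested.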
